A study of Mus musculus with 20 samples.

Results

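The genes described here handle vitamin A in the liver, from its transport and storage to the synthesis, reading and breakdown of retinoic acid. The members were named by symbol, and each of the 9 (Rbp4, Lrat, Retsat, Rdh16, Rdh11, Dhrs3, Aldh1a1, Cyp26a1 and Rarb) was found among the 22298 genes listed for every sample. All 9 also passed the filter on low counts that left 12342 genes for testing. Dietary vitamin A reaches the liver as retinol and is stored there as retinyl esters, for the most part in hepatic stellate cells, while hepatocytes secrete retinol bound to a carrier protein. Oxidation of retinol gives retinal and then retinoic acid, which binds nuclear receptors of the RAR family paired with RXR. Cytochrome P450 enzymes of the CYP26 family break retinoic acid down, and their genes are in turn induced by it.

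Liver RNA was sequenced from male Lepr db/db mice, a model of obesity with diabetes caused by loss of leptin signalling. Each mouse was injected in the tail vein, when 5 weeks old, with an adeno-associated virus of serotype 8 (AAV8). It carried either a non-targeting shRNA (called Vec here) or a 4-in-1 set of shRNAs against Pparg (called shRNA), the gene of the nuclear receptor PPARγ. They were then given benzbromarone (BBR), a uricosuric drug, at 25 mg/kg by gavage once daily for 4 weeks, or its vehicle, sodium carboxymethyl cellulose, and tissue was taken after a fast of 6 h. The 4 groups were thus Vec (vehicle), Vec+BBR, shRNA (vehicle) and shRNA+BBR, and GEO's labels give them as control, benzbromarone, a PPAR knockdown, and that knockdown with benzbromarone. All 4 groups carry the db/db genotype and a viral vector, so no lean and no uninjected liver was compared. The study followed the knockdown by staining liver sections for PPARγ, by western blots of liver and by qPCR of Pparg in liver tissue. It described weaker PPARγ expression with BBR within hepatocytes of mice given the shRNAs. The promoter that drives the shRNAs was not given in the sources used here. Each group had 5 libraries, and nothing in those sources says that each came from a separate animal, so p-values measure the spread between libraries.

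The libraries held between 17432904 and 25024099 counts assigned to genes. Pparg, the targeted gene, lay between 16.4 and 35.9 counts per 1000000 (CPM) in Vec, between 28.0 and 38.3 in Vec+BBR, between 3.24 and 7.31 in shRNA and between 7.19 and 21.8 in shRNA+BBR libraries. The shRNA libraries were all below the Vec libraries, and the shRNA+BBR libraries were all below the Vec+BBR libraries. Summed markers of hepatocytes took between 87223 and 152500 CPM in every library, and those of pancreas acinar cells at most 5.69 CPM.

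Retinoic acid receptors bind as heterodimers to direct repeats of a 6-base half-site, and repeats 5 bases apart are the classic element of genes that retinoic acid induces. The stretch from 250 bases before to 50 bases after each annotated start was therefore read for the 9 genes, from RefSeq on GRCm38.p6. Repeats of the half-site AGGTCA, or of its variants AGTTCA and GGGTCA and also GGTTCA, in any pair and on either strand, were searched with 5 bases between the half-sites. Of the 14 windows, 1 of Cyp26a1 and 1 of Rarb held such a repeat, where 0.097% of the 32851 windows of all genes did. Neither repeat has AGGTCA as a half-site, so both matches depend on the variants that were searched. The share over all windows is therefore given as a description and not as a test. Repeats 1 base apart, which 0.222% of all windows held, and 2 bases apart, which 0.268% held, were in none of the 14 windows. Both windows with a repeat are printed here, 5′ to 3′ on the strand of the gene and with the repeat in capitals.
Cyp26a1, chr19:37697558-37697857, plus strand: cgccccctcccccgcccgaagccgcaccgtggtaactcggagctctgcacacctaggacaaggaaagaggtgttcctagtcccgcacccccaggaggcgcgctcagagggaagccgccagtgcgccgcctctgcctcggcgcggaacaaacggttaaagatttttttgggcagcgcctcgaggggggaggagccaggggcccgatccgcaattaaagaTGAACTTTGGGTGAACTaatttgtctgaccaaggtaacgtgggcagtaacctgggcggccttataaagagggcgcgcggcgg
Rarb, chr14:16575427-16575726, minus strand: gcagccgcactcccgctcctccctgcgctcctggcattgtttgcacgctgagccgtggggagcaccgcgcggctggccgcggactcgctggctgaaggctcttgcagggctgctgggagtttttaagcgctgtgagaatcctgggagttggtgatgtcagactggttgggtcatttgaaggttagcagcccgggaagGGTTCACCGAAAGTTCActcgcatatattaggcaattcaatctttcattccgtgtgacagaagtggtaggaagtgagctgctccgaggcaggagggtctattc
In Cyp26a1 the repeat runs from 32 to 16 bases before the start and reads on the other strand. In Rarb it runs from 53 to 37 bases before this start and reads on the printed strand. A match of letters is a description of the window and does not show that a receptor was bound.

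Per length, the carrier and the cytosolic retinal dehydrogenase were the most abundant of the 9 transcripts, and the storage enzyme and the receptor the least. The authors' FPKM values (fragments per kilobase of transcript, scaled to sequencing depth), which allow levels of different genes to be compared, averaged 2833 for Rbp4, 1169.8 for Aldh1a1 and 417 for Retsat over the 20 libraries. Rdh16 followed at 65.4, Dhrs3 at 58.9, Cyp26a1 at 15.8, Rdh11 at 10.1, Lrat at 1.78 and Rarb at 1.34 FPKM. Rbp4 exceeded Aldh1a1, Aldh1a1 exceeded Retsat, Retsat exceeded Rdh16 and Rdh11 exceeded Lrat in 20 of 20 libraries. The order was not kept within Rdh16 and Dhrs3 (12 of 20 libraries), Cyp26a1 and Rdh11 (10 of 20) or Lrat and Rarb (15 of 20). Cyp26a1 varied most, with 12.8-fold between its highest and lowest library, and Dhrs3 least, with 1.65-fold.

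**Figure D1:**
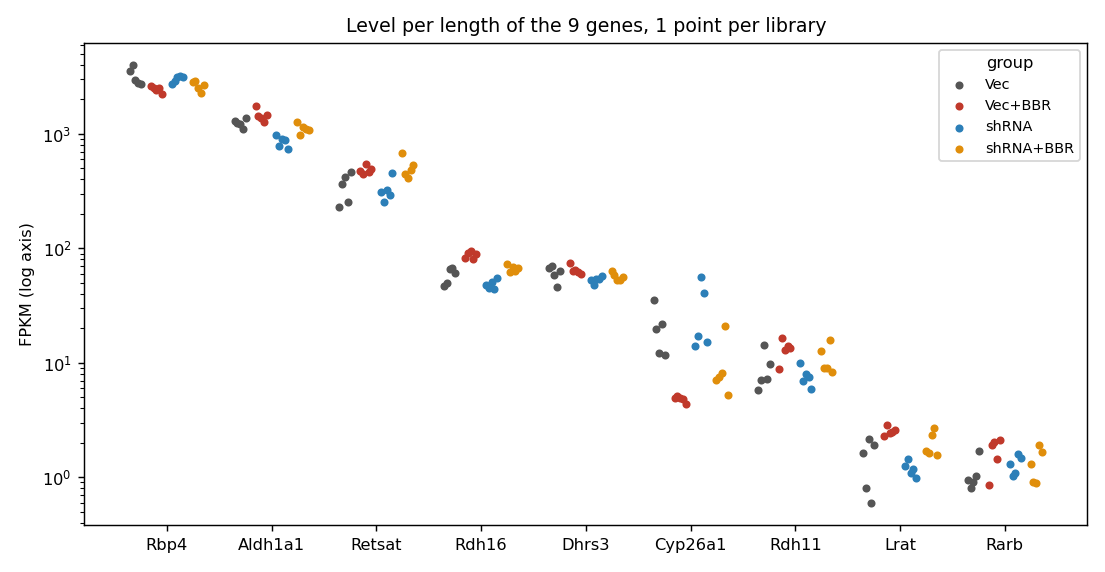
FPKM (log axis) of the 9 genes in order of their mean, with 1 point for each of the 20 libraries coloured by group. Rbp4 lies at 2241 FPKM or above in every library, Lrat and Rarb lie below 2.84, and Cyp26a1 spans the widest range, with the Vec+BBR libraries lowest.

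The first question was how BBR changed these genes in livers with the control vector. Of the 9, 1 was called higher (Rdh16) and 2 lower (Cyp26a1 and Rbp4) in Vec+BBR than in Vec, where called means an adjusted p under 0.05 over all genes tested with edgeR. Among all 12342 genes, 15.5% were called, 7.58% higher and 7.88% lower. For 4 of the 9 (Cyp26a1, Rbp4, Lrat and Rdh16) the CPM values of both groups did not overlap, as for 8.94% of all genes. The median log2 fold change was 0.41 over the 9 and −0.005 over all genes. In livers with Pparg shRNAs, BBR changed 6 of the 9. Higher were Lrat, Retsat, Rdh16, Rdh11 and Aldh1a1, and Cyp26a1 was lower, where 15.7% of all genes were called, 8.37% higher and 7.28% lower. The groups did not overlap for 3 of the 9 (Lrat, Rdh16 and Aldh1a1), as for 11.4% of all genes, and the median log2 fold change was 0.40 over the 9 and 0.008 over all genes.

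The second question was what the knockdown changed. Without BBR, 2 of the 9 were lower in shRNA than in Vec (Aldh1a1 and Rdh16) and none was higher by edgeR, where 13.2% of all genes were called, 5.28% higher and 7.91% lower. Among the 9, 3 had an unadjusted p under 0.05. Under BBR, Rdh16 alone was called, lower with the knockdown, where 8.13% of all genes were called, 3.31% higher and 4.82% lower. The groups did not overlap for 1 of the 9 in either comparison (Aldh1a1 without BBR and Rdh16 under BBR), as for 8.96% and 8.48% of all genes. The third question was whether BBR acted differently with and without the knockdown. The interaction test of edgeR called 0 of the 9, where it called 0.146% of all genes, 0.0729% higher and 0.0729% lower. By edgeR 0 of the 9 had an unadjusted p under 0.05. DESeq2 also called 0 of the 9, where it called 338 genes in all. With so few genes called, 0 of the 9 does not set these genes apart from the rest. The 4 comparisons share groups and are not independent of each other.

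**Figure D2:**
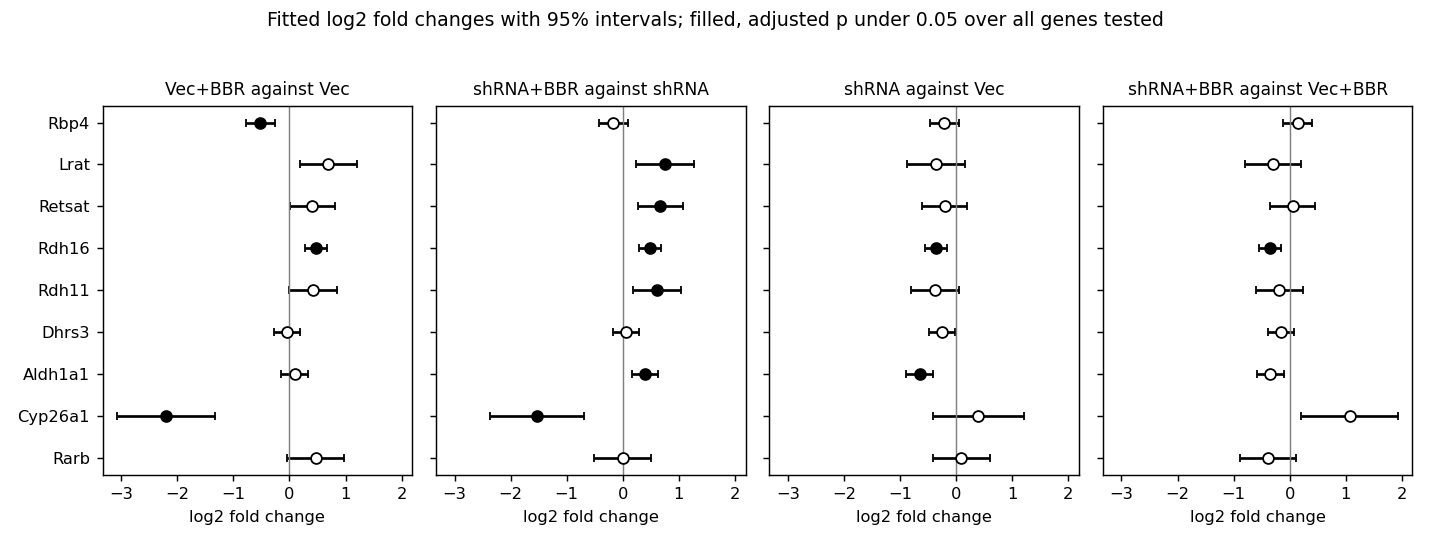
Fitted log2 fold change (x axis) of the 9 genes in the 4 comparisons, with 95% intervals; filled points had an adjusted p under 0.05 over all genes tested. Cyp26a1 lies farthest to the left in both BBR comparisons (−2.20 and −1.52), and Aldh1a1 lies farthest to the left in the knockdown without BBR (−0.65).

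Cyp26a1 (ENSMUSG00000024987, chromosome 19 from 37697798 to 37701536 on the plus strand, GRCm38) encodes the main enzyme that hydroxylates and so clears retinoic acid in liver. Its transcript fell with BBR under both vectors. In Vec livers it was at 67.7, 40.3, 23.4, 39.5 and 21.4 CPM, and in Vec+BBR livers at 9.23, 8.02, 8.70, 8.08 and 7.67 CPM. The Vec+BBR values were all below the lowest Vec value and lay within a narrow band, with a coefficient of variation of 7.46% against 48.2% in Vec. The means of 38.5 ± 18.5 and 8.34 ± 0.622 CPM (SD, n = 5 per group) gave a 4.61-fold fall, a log2 fold change of −2.20 (standard error 0.42, 95% interval −3.08 to −1.33, edgeR adjusted p = 0.00179). The exact permutation test of the means gave p = 0.0079, the smallest that it can give with 5 libraries a group. Adjusted over the 36 such tests it was 0.0317. The call was kept in all 16 alternatives, with adjusted p-values from 2.2e-05 to 0.00677.

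In livers with the knockdown, Cyp26a1 was at 25.1, 29.9, 99.6, 70.3 and 26.7 CPM with vehicle and at 12.4, 14.1, 14.8, 37.3 and 9.05 CPM with BBR. shRNA replicates 3 and 4 stood above the other 3, shRNA+BBR replicate 4 stood above the other 4, and it was this library that made the groups overlap. The log2 fold change was −1.52 (standard error 0.40, 95% interval −2.36 to −0.68, edgeR adjusted p = 0.0181). It was −1.11 (adjusted p = 0.0536) without shRNA replicate 3 and −1.46 (adjusted p = 0.0551) without shRNA+BBR replicate 3, and adjusted p-values ranged from 0.00672 to 0.0551 over its 16 alternatives. The difference between the 2 BBR effects was 0.68 (95% interval −0.50 to 1.87, edgeR adjusted p = 0.526), which spans 0. The knockdown gave log2 fold changes of 0.39 without BBR (adjusted p = 0.542), which was −0.01 without shRNA replicate 3, and 1.07 under BBR (95% interval 0.20 to 1.94, adjusted p = 0.114), and neither was called. In a fit of only the 2 BBR groups the latter was 1.08 with an adjusted p of 0.044.

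Cyp26a1 is transcribed mainly in hepatocytes near the central vein. Most markers of that zone, and some of other hepatocytes, were lower with BBR in Vec livers. Of 9 pericentral markers, 7 were lower and 0 higher in Vec+BBR than in Vec (median log2 fold change −1.07), among them Cyp1a2 at −1.60 and Oat at −2.02. Of 9 periportal markers, 5 were lower and 1 higher in the same comparison (median −0.65), among them Ass1 at −1.08 and Etnppl at −0.97. Among all genes, 7.88% were called lower and 7.58% higher in it. The summed level of the pericentral markers ran from 9605 to 18213 CPM in Vec and from 6411 to 8798 CPM in Vec+BBR. Most of this sum was Cyp2e1, with means of 9450 CPM in Vec, 5434 in Vec+BBR, 4282 in shRNA and 4285 in shRNA+BBR. Values per 1000 CPM of these markers therefore depend mainly on that gene. In shRNA+BBR against shRNA, Cyp26a1 was also called lower. There 0 of the 9 pericentral markers were called in either direction by edgeR, and their median was 0.001. Their sum ran from 6513 to 8871 CPM in shRNA and from 4453 to 8602 CPM in shRNA+BBR. Cyp26a1 per 1000 CPM of these markers was 1.90 to 3.98 in Vec and 0.943 to 1.36 in Vec+BBR, and the groups did not overlap on this scale either. With the knockdown it was 3.11 to 12.8 with vehicle and 1.05 to 8.37 with BBR, where shRNA+BBR replicate 4 lay inside the vehicle range. The part of these markers in the result was not tested. In bulk liver RNA, fewer cells of a type and less RNA per cell cannot be told apart.

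**Figure D3:**
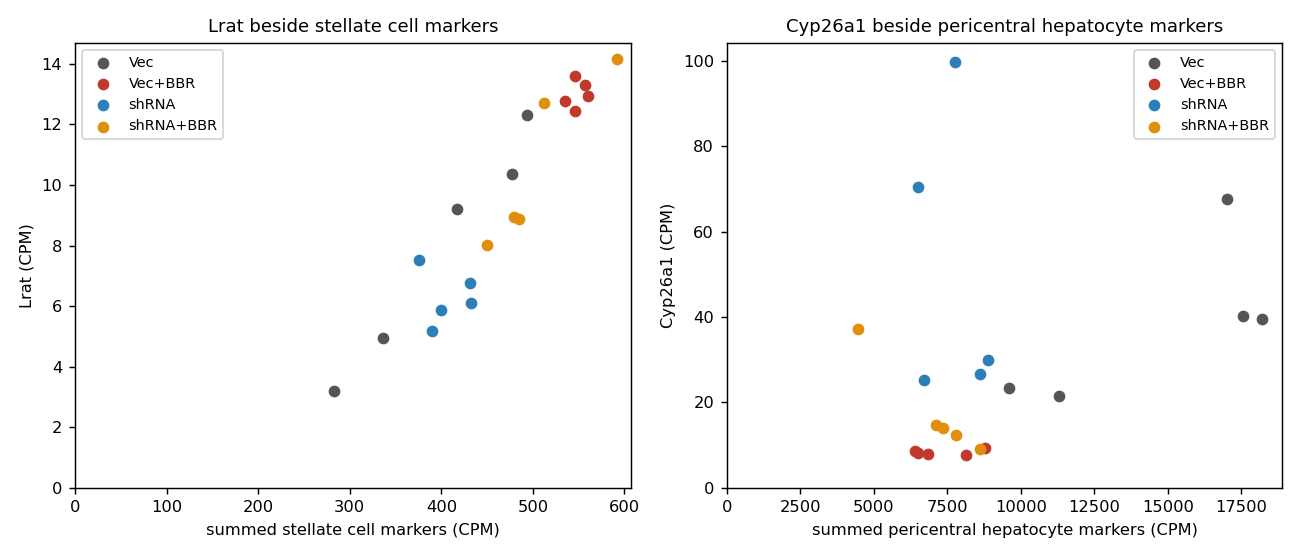
Left, Lrat against the sum of 14 stellate cell markers, and right, Cyp26a1 against the sum of 9 pericentral hepatocyte markers (all in CPM), with 1 point for each of the 20 libraries coloured by group. Lrat and its markers are lowest in a Vec library (3.19 and 283 CPM), and the Vec+BBR libraries lie at 6411 to 8798 CPM of pericentral markers with 7.67 to 9.23 CPM of Cyp26a1.

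Rbp4 (ENSMUSG00000024990, chromosome 19 from 38116629 to 38125281 on the minus strand) encodes the serum retinol-binding protein with which hepatocytes export retinol. BBR lowered it in livers with the control vector. Vec libraries held 3566, 4310, 2943, 2607 and 2617 CPM, and Vec+BBR libraries 2582, 2075, 2254, 2182 and 2065 CPM. The highest Vec+BBR value was just under the lowest Vec value, so the groups were separate but adjoining. The log2 fold change was −0.52 (standard error 0.12, 95% interval −0.78 to −0.27, edgeR adjusted p = 0.0074), a 1.44-fold fall that was called in all 16 alternatives. With the knockdown the values ran from 2559 to 2919 CPM with vehicle and from 2108 to 2824 CPM with BBR, and the log2 fold change of −0.17 (95% interval −0.43 to 0.08, adjusted p = 0.336) did not pass the test. The interaction of 0.35 (95% interval −0.01 to 0.71, adjusted p = 0.286) did not pass either, so the difference between vectors was not shown. Of 8 hepatocyte markers, 5 were lower and 0 higher in Vec+BBR than in Vec, against 7.88% and 7.58% of all genes. Alb (−0.27, edgeR adjusted p = 0.114), Ttr and Apoa1 were not called. Summed levels were 122679 to 152500 CPM in Vec and 87223 to 122311 CPM in Vec+BBR. Most of the sum was Alb, with means of 109700 CPM in Vec and 91170 CPM in Vec+BBR. Rbp4 per 1000 CPM of these markers was 20.6 to 28.3 in Vec and 18.4 to 23.8 in Vec+BBR, ranges that overlap. The part of these markers in the result was not tested.

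Lrat (ENSMUSG00000028003, chromosome 3 from 82892579 to 82903973 on the minus strand) encodes lecithin:retinol acyltransferase, which esterifies retinol for storage and in liver is a product of stellate cells. With BBR its call was made in livers with the knockdown and missed in livers with the control vector, and in both the groups did not overlap. The Vec libraries held 9.22, 4.95, 12.3, 3.19 and 10.4 CPM, and the Vec+BBR libraries 12.8, 13.3, 12.9, 12.5 and 13.6 CPM. Vec replicates 2 and 4 were far below the other 3, and every Vec+BBR library was above every Vec library. The log2 fold change was 0.69 (standard error 0.24, 95% interval 0.19 to 1.20, edgeR adjusted p = 0.057). It was called by DESeq2 (adjusted p = 0.0322), without Vec replicate 3 (0.89, edgeR adjusted p = 0.013) and without Vec replicate 5 (0.80, adjusted p = 0.0376).

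With the knockdown, Lrat was at 6.76, 7.53, 5.88, 6.09 and 5.17 CPM with vehicle and at 8.87, 8.95, 12.7, 14.1 and 8.02 CPM with BBR, and the lowest BBR library was above the highest vehicle library. The log2 fold change was 0.75 (standard error 0.25, 95% interval 0.24 to 1.26, edgeR adjusted p = 0.0445). This call was near the threshold: it was lost in 8 of the 10 fits without 1 library, namely all but those without shRNA+BBR replicate 1 or 5, with adjusted p-values of up to 0.117, without the filter on low counts (adjusted p = 0.052) and with a replicate block (0.0638). The interaction was 0.06 (95% interval −0.66 to 0.77). The knockdown changed Lrat by −0.36 without BBR (adjusted p = 0.36) and by −0.30 under BBR (adjusted p = 0.462), neither called.

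Some markers of the cells that hold Lrat, and some of other cells that are not hepatocytes, were called with BBR in the same livers. Among all genes, 7.58% were called higher and 7.88% lower in Vec+BBR than in Vec. In shRNA+BBR against shRNA the shares were 8.37% and 7.28%. Of 14 stellate cell markers, 5 were higher and 0 lower in Vec+BBR than in Vec, and 4 were higher and 0 lower in shRNA+BBR than in shRNA. The collagen genes Col1a1 (1.18 and 1.70 on the log2 scale) and Col3a1 (1.03 and 1.40) and the receptor gene Pdgfrb (0.64 and 0.66) were higher in both. Of 7 sinusoidal endothelial markers, 4 were higher and 0 lower in Vec+BBR than in Vec, among them Lyve1 at 0.92 and Pecam1 at 0.53, and 1 was higher and 2 lower in shRNA+BBR than in shRNA. Of 8 Kupffer cell and macrophage markers, 1 was higher and 2 lower in the former and 1 higher and 0 lower in the latter, and of 5 cholangiocyte markers 1 was higher and 0 lower in each. Among the stellate markers, Reln, a marker of quiescent stellate cells, was at 0.09 (adjusted p = 0.752) and −0.46 (adjusted p = 0.0601). The summed stellate markers ran from 283 to 494 CPM in Vec, 535 to 560 in Vec+BBR, 376 to 433 in shRNA and 450 to 592 in shRNA+BBR. Lrat per 1000 CPM of these markers had medians of 21.7, 23.9, 14.7 and 18.7 in the same order, and on this scale the ranges of 11.3 to 24.9 in Vec and 22.8 to 24.9 in Vec+BBR overlapped, as did those of 13.2 to 20.1 in shRNA and 17.8 to 24.8 in shRNA+BBR. No stellate marker was at 0 in a group, and the part of the markers in the change of Lrat was not tested.

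Retsat (ENSMUSG00000056666, chromosome 6 from 72598475 to 72608425 on the plus strand) encodes retinol saturase, which converts retinol to dihydroretinol. It rose with BBR in livers with the knockdown. The shRNA libraries were at 707, 562, 736, 646 and 1018 CPM and the shRNA+BBR libraries at 1555, 998, 961, 1138 and 1177 CPM. Only shRNA replicate 5 reached into the BBR range. The log2 fold change of 0.67 (standard error 0.19, 95% interval 0.27 to 1.07, edgeR adjusted p = 0.0261) was a 1.59-fold rise. The call was lost without shRNA replicate 1 (adjusted p = 0.0536), 2 (0.0664) or 4 (0.0615) and without shRNA+BBR replicate 1 (0.0583), with adjusted p-values from 0.00755 to 0.0664 over the alternatives. In Vec livers, with 555, 927, 1031, 582 and 1134 CPM, and Vec+BBR livers, with 1176, 937, 1288, 1029 and 1181 CPM, the difference was 0.41 (95% interval 0.01 to 0.81, adjusted p = 0.156). The interaction of 0.26 (95% interval −0.30 to 0.82, edgeR adjusted p = 0.619) did not pass, so a difference between vectors was not shown. The knockdown did not move Retsat past the test without BBR (−0.20, adjusted p = 0.513) or under BBR (0.06, adjusted p = 0.892).

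Rdh16 (ENSMUSG00000069456, chromosome 10 from 127801152 to 127846565 on the plus strand) encodes a retinol dehydrogenase of the short-chain family, which oxidises retinol to retinal. It was called in all 4 comparisons, higher with BBR and lower with the knockdown. The libraries held 158, 180, 226, 214 and 198 CPM in Vec, 274, 253, 298, 242 and 283 in Vec+BBR, 152, 139, 161, 137 and 172 in shRNA and 224, 208, 226, 198 and 205 in shRNA+BBR. The order of the group means was thus Vec+BBR (269.8 ± 22.4), shRNA+BBR (212 ± 12.4), Vec (195 ± 26.9) and shRNA (152 ± 14.97 CPM, SD, n = 5 each). The neighbours Vec and shRNA+BBR overlapped, as did Vec and shRNA, while Vec+BBR lay above every other library.

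The BBR effect on Rdh16 was 0.47 in Vec livers (standard error 0.09, 95% interval 0.27 to 0.66, edgeR adjusted p = 0.00263) and 0.48 in shRNA livers (standard error 0.09, 95% interval 0.28 to 0.67, adjusted p = 0.005) on the log2 scale. These calls were kept in all 16 alternatives each. The interaction of 0.01 had a 95% interval of −0.27 to 0.29. The knockdown effect was −0.36 without BBR (standard error 0.09, adjusted p = 0.0156) and −0.35 under BBR (standard error 0.09, adjusted p = 0.0268). The former was lost without Vec replicate 3 (adjusted p = 0.0501), without shRNA replicate 4 (0.0532) and in the fit of only the 2 groups (0.0587). The latter was lost in 6 of 10 fits without 1 library, namely those without Vec+BBR replicate 1, 3 or 5 or shRNA+BBR replicate 2, 4 or 5, with adjusted p-values of up to 0.0736. The pericentral markers moved the other way from it with BBR in Vec livers, and per 1000 CPM of them Rdh16 was 9.31 to 23.6 in Vec and 31.1 to 46.4 in Vec+BBR. Without BBR, 5 of these 9 markers were lower and 0 higher in shRNA than in Vec, against 7.91% and 5.28% of all genes. This was the direction of Rdh16, and the part of these markers was not tested. Rdh16 shares 6.28% of its 50-base stretches with Rdh9 and 5.88% with Rdh16f1, and its deposited counts were not whole in 19 of 20 libraries, so its counts are uncertain to the extent that reads were split among copies.

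Rdh11 (ENSMUSG00000066441, chromosome 12 from 79174337 to 79192293 on the minus strand) encodes a short-chain dehydrogenase that acts on retinal and retinol. It was at 18.0, 22.4, 44.0, 20.5 and 26.7 CPM in Vec, 27.1, 36.9, 35.7, 39.1 and 38.1 in Vec+BBR, 26.4, 17.6, 22.02, 19.7 and 15.7 in shRNA and 33.8, 28.5, 29.0, 42.0 and 22.2 in shRNA+BBR. Vec replicate 3 was above every Vec+BBR library, and the other 4 Vec libraries were all below the lowest of them. With the knockdown, BBR raised Rdh11 by 0.62 (standard error 0.21, 95% interval 0.19 to 1.04, edgeR adjusted p = 0.0466), a call near the threshold. It was lost in 8 of 10 fits without 1 library, namely all but those without shRNA replicate 1 or shRNA+BBR replicate 5, with adjusted p-values of up to 0.125, without the filter on low counts (0.0543) and with a replicate block (0.0538). In Vec livers the difference of 0.42 (95% interval 0.00 to 0.85, adjusted p = 0.166) was not called, and without Vec replicate 3 it was 0.68 with an adjusted p of 0.00773. The interaction of 0.19 (95% interval −0.41 to 0.79, edgeR adjusted p = 0.746) did not pass, so a difference between vectors was not shown.

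Dhrs3 (ENSMUSG00000066026, chromosome 4 from 144892827 to 144928209 on the plus strand) encodes the enzyme that returns retinal to retinol, with RDH10 as its partner, and is itself known to be induced by retinoic acid. None of the 4 comparisons was called by edgeR, and the unadjusted p was under 0.05 in 1 of them, the knockdown without BBR. Its range was 73.5 to 123 CPM in Vec, 89.4 to 119 in Vec+BBR, 76.1 to 93.7 in shRNA and 80.7 to 97.8 in shRNA+BBR. The intervals bound the BBR effect at −0.27 to 0.19 in Vec and −0.17 to 0.29 in shRNA livers on the log2 scale. That of the knockdown without BBR was −0.48 to −0.02 (−0.25, edgeR adjusted p = 0.135), and without Vec replicate 4, the lowest Vec library, it was −0.35 with an adjusted p of 0.0166.

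Aldh1a1 (ENSMUSG00000053279, chromosome 19 from 20492715 to 20643465 on the plus strand) encodes the cytosolic dehydrogenase that oxidises retinal to retinoic acid and is abundant in hepatocytes. Without BBR it had the lowest log2 fold change of the 9 with the knockdown. The Vec libraries were at 2832, 2949, 2684, 2251 and 2894 CPM, and the shRNA libraries at 2003, 1568, 1832, 1764 and 1498 CPM, without overlap. The log2 fold change was −0.65 (standard error 0.12, 95% interval −0.89 to −0.41, edgeR adjusted p = 0.000759), a 1.57-fold fall called in all 16 alternatives. BBR raised it in livers with the knockdown, to 2534, 2089, 2405, 2237 and 2142 CPM. Each of these lay above every shRNA library, with a log2 fold change of 0.40 (standard error 0.11, 95% interval 0.16 to 0.64, adjusted p = 0.0266). That call was lost without shRNA replicate 2 (adjusted p = 0.065), 4 (0.0502) or 5 (0.0695) and without shRNA+BBR replicate 3 (0.0676).

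In livers with the control vector, BBR left Aldh1a1 at 3723, 2584, 2785, 2455 and 2945 CPM, a difference of 0.09 (95% interval −0.15 to 0.33, adjusted p = 0.645). It was −0.03 without Vec+BBR replicate 1, the highest library. Between both vectors under BBR the difference was −0.35 (95% interval −0.58 to −0.11, edgeR adjusted p = 0.0647, DESeq2 adjusted p = 0.0302). The interaction was 0.31 (95% interval −0.03 to 0.64, adjusted p = 0.312) and did not pass. Summed pericentral markers were lower in shRNA (6513 to 8871 CPM) than in Vec (9605 to 18213 CPM), with no overlap. Most of the sum was Cyp2e1, with means of 9450 CPM in Vec and 4282 CPM in shRNA. Per 1000 CPM of these markers Aldh1a1 was 124 to 279 in Vec and 174 to 299 in shRNA. The part of these markers was not tested. Of its 50-base stretches, 3.06% are shared with Aldh1a7, which moved in the same direction (−0.39 with the knockdown, 0.47 with BBR in shRNA livers), and the deposited counts of Aldh1a1 were not whole in 19 of 20 libraries.

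Rarb (ENSMUSG00000017491, chromosome 14 from 16430839 to 16819156 on the minus strand) encodes the retinoic acid receptor β, a receptor whose own gene is a known target of retinoic acid. It was at 2.25, 2.83, 2.99, 2.84 and 5.37 CPM in Vec, 2.78, 4.52, 5.61, 3.97 and 5.74 in Vec+BBR, 3.66, 2.96, 3.38, 4.86 and 2.50 in shRNA and 3.10, 2.61, 2.79, 4.61 and 4.21 in shRNA+BBR. All 4 groups overlapped, and none of the 4 comparisons was called by edgeR with all 20 libraries. The fitted differences were 0.47 with BBR in Vec livers (95% interval −0.04 to 0.97, edgeR adjusted p = 0.203), −0.01 with BBR in shRNA livers (−0.51 to 0.50), 0.09 with the knockdown (−0.42 to 0.60) and −0.38 with the knockdown under BBR (−0.88 to 0.12). Without Vec replicate 5 the first was 0.73 with an adjusted p of 0.0336. These values rest on 43.8 to 122 counts per library. Of its annotated exon bases, 34.1% overlap exons of Top2b on the opposite strand, and the library kit does not mark strand, so reads of both genes cannot be told apart there. Top2b itself was not called in any of the comparisons by edgeR.

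**Figure D4:**
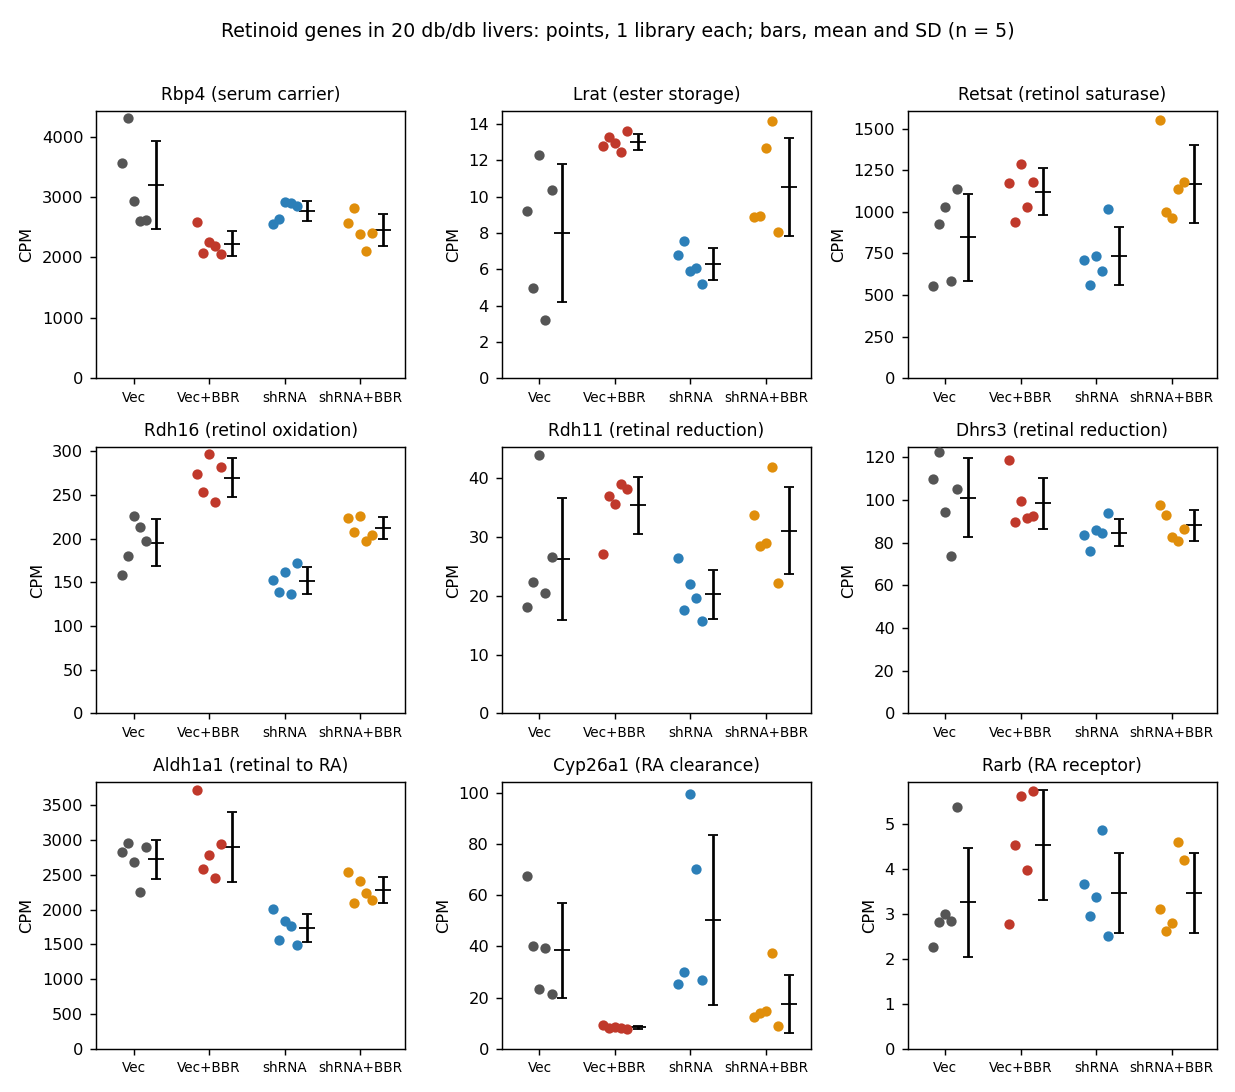
CPM (y axis, from 0) of the 9 genes in the 4 groups, with 1 point per library and bars for the mean and SD (n = 5). The Vec+BBR points of Cyp26a1 lie together at 7.67 to 9.23 CPM, those of Lrat at 12.5 to 13.6 CPM, and the shRNA points of Aldh1a1 lie below all Vec points.

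Beyond the 9, 64 other genes of retinoid metabolism and response were listed by role, of which 48 passed the filter. BBR changed 11 of the 48 in Vec livers (4 higher, 7 lower) and 10 in shRNA livers (4 higher, 6 lower), and the knockdown changed 13 without BBR (4 higher, 9 lower) and 3 under BBR (1 higher, 2 lower). Among all 12342 genes, 15.5%, 15.7%, 13.2% and 8.13% were called in these comparisons, in the same order. The median log2 fold changes of the 48 were −0.02, −0.02, −0.06 and −0.06. The interaction called 0 of the 48 by edgeR, and 0.146% of all genes. Altogether 37 calls were made, in 28 genes, and 21 of them were kept in every alternative tried. The other 16, lost in at least 1, included those of Lpl, Rdh5, Rdh7, Rarres1, Aldh8a1, Rxra, Lipe, Dhrs4, Dhrs7, Adh1 and Cyp2c39, both of Aldh1a7, and that of Adh4 with BBR.

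**Figure D5:**
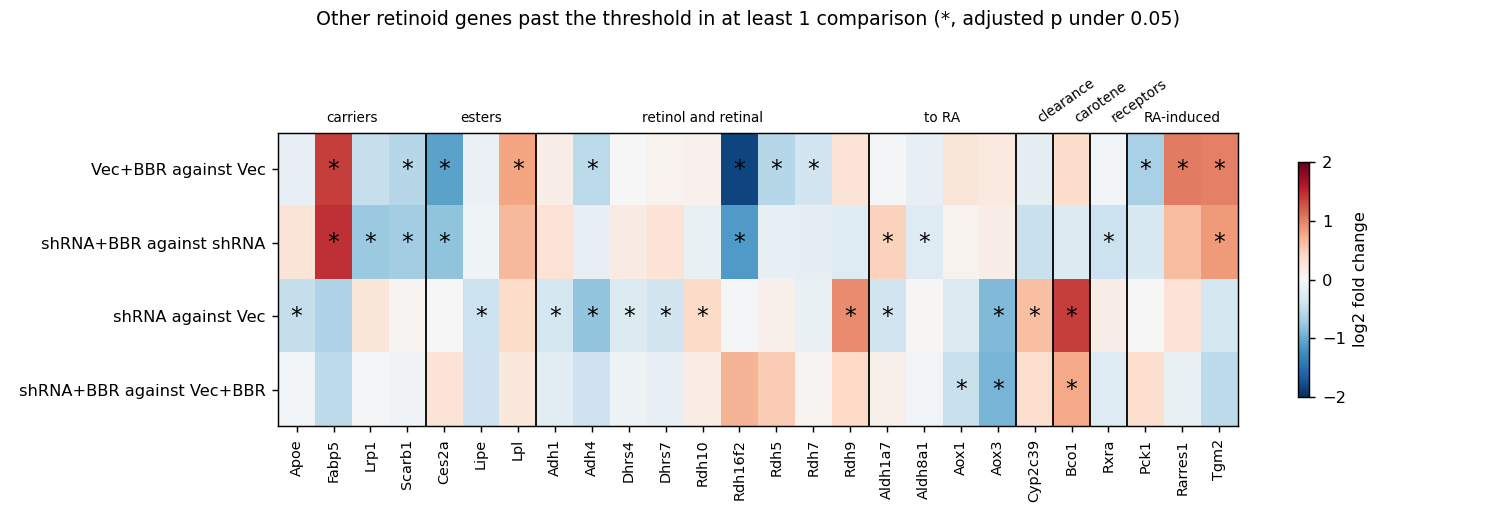
Log2 fold change (colour, from −2 in blue to 2 in red) of other retinoid genes called in at least 1 comparison, in columns grouped by role, with the 4 comparisons in rows; stars mark an adjusted p under 0.05. Rdh16f2 is the darkest blue in both BBR comparisons (−1.83 and −1.13), and Bco1 is red in both knockdown comparisons (1.39 and 0.76).

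Among retinol and retinal dehydrogenases, 0 of 13 were higher and 4 lower with BBR in Vec livers, against 7.58% and 7.88% of all genes. Rdh16f2, a relative of Rdh16, fell from 76.1 ± 28.9 to 21.4 ± 5.79 CPM (SD, n = 5 per group) in Vec livers and from 74.8 ± 12.8 to 34.3 ± 4.61 CPM in shRNA livers (log2 fold changes −1.83 and −1.13, edgeR adjusted p = 7.98e-05 and 0.00558), while Rdh16 rose in both. The pair shared none of the 50-base stretches compared. Rdh5 (−0.57), Adh4 (−0.54) and Rdh7 (−0.38) were the other 3 that fell. The knockdown without BBR lowered Adh4 (−0.79), Dhrs7 (−0.37), Adh1 (−0.36) and Dhrs4 (−0.28) and raised Rdh9 (0.94) and Rdh10 (0.38), the retinol dehydrogenase that pairs with DHRS3. Rdh9, which shares stretches with Rdh16 as given above, rose from a mean of 73.8 CPM (60.9 to 91.8 in Vec) to one of 142 CPM (116 to 164 in shRNA).

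Of 5 genes that act between retinal and retinoic acid, the aldehyde oxidase gene Aox3 fell with the knockdown without BBR (from 12.5 ± 2.61 to 6.82 ± 1.30 CPM, −0.88) and under BBR (from 14.3 ± 0.440 to 7.47 ± 1.70 CPM, −0.93), and Aox1 fell under BBR (−0.45). Aldh8a1 fell with BBR in shRNA livers (−0.26). Bco1, which cleaves β-carotene to retinal, rose with the knockdown from 1.95 ± 0.472 to 5.14 ± 0.882 CPM without BBR (1.39, edgeR adjusted p = 8.39e-05) and from 2.50 ± 0.502 to 4.22 ± 0.896 CPM under BBR (0.76, adjusted p = 0.0172). Bco2 was called in no comparison. Of the other clearance genes, Cyp26b1 was called in no comparison, Cyp2c39 rose with the knockdown without BBR (0.60), and Cyp26c1 and Cyp2s1 did not pass the filter.

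Among 8 carriers and uptake genes, the fatty acid and retinoic acid binding protein gene Fabp5 rose with BBR from 3.78 ± 3.16 to 9.89 ± 1.75 CPM in Vec livers (1.38) and from 2.49 ± 0.590 to 6.85 ± 2.80 CPM in shRNA livers (1.46). Scarb1 fell with BBR under both vectors (−0.56 and −0.69) and Lrp1 under the knockdown (−0.74). Apoe, which serves lipoprotein uptake, fell with the knockdown without BBR (−0.47). Ttr, which carries RBP4 in plasma, and Stra6l, a retinol transporter of liver, were called in no comparison. Among 8 genes of ester formation and hydrolysis, Ces2a fell with BBR (−1.07 and −0.80), Lpl rose with BBR in Vec livers (0.79) and Lipe fell with the knockdown without BBR (−0.43).

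Of 7 genes known to be induced by retinoic acid, Tgm2 rose with BBR under both vectors (1.01 and 0.84), from 129 ± 51.7 to 259.9 ± 31.9 CPM in Vec livers. Rarres1 rose in Vec livers (1.04) and Pck1, which is also among the periportal markers given above, fell there (−0.65). In Vec livers 2 of the 7 were higher and 1 lower with BBR, against 7.58% and 7.88% of all genes. Thus Cyp26a1 and Pck1 were lower and Tgm2 and Rarres1 higher in the same Vec+BBR livers, and Dhrs3 and Rarb were not called. Among the receptors Rxra was lower with BBR in shRNA livers (−0.43, adjusted p = 0.0441), and Rara, Rarg, Rxrb and Rxrg were called in no comparison.

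The genes whose log2 CPM ran most in parallel with each member over the 20 libraries were read from all genes tested, as a description over libraries that share 4 group means. For Lrat these were Fstl1, Col3a1 and Tpm1 (Pearson r = 0.96, 0.947 and 0.942), matrix and contractile genes, and with each group's mean removed r was 0.927, 0.903 and 0.927. Rdh11 ran with Acat2, Fabp5 and Fdps (0.938, 0.932 and 0.932), of which Acat2 and Fdps act in sterol synthesis. For Rdh16 they included Suclg2 and Acadm (0.936 and 0.925), genes of mitochondrial fuel oxidation, and r fell to 0.587 and 0.647 with the group means removed. Retsat ran with Cryz, Cyp4a14 and Pex11a (0.892, 0.888 and 0.869), of which Cyp4a14 and Pex11a are known targets of PPARα. For Cyp26a1 they included Cyp2c70 and Kng2 (0.86 and 0.856), and r within groups was 0.526 and 0.553. Rbp4 ran with Proc, Txn2 and Zfand2b (0.955, 0.952 and 0.941), Aldh1a1 with Car3, Cetn2 and Cmas (0.927, 0.909 and 0.905), Dhrs3 with Snrpa, Kxd1 and Selp (0.825, 0.819 and 0.816) and Rarb with Grb10, Pot1a and Jcad (0.803, 0.794 and 0.792).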

How the data were processed

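Liver RNA was selected with oligo(dT), and libraries made with a kit that does not mark strand were sequenced by the authors on an Illumina NovaSeq. Per the labels the genome build was mm10, and the aligner and counter are not given in the sources used here. For each of the 20 libraries the authors deposited an estimated count (expected count) per gene, which need not be whole, and an FPKM value. The counts were rounded, genes with too few were dropped with filterByExpr (minimum count 10, minimum total 15), and libraries were scaled with TMM. All 4 groups were fitted with edgeR 4.0.16 (quasi-likelihood test, R 4.3.3), with Benjamini-Hochberg adjustment over 12342 genes and a threshold of 0.05. CPM are on TMM-scaled library sizes, and the deposited FPKM served only to compare levels between genes, without a test. A count of 3, taken as the floor, is 0.120 to 0.172 CPM and covers counting error only, while the 95% intervals of fold changes come from the fit and include the spread between libraries. Means of single genes were compared with two-sided exact permutation tests (scipy 1.17.1), with Benjamini-Hochberg adjustment over 36 tests.

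Of the listed identifiers, 22255 of 22298 were in GENCODE M21 (GRCm38), which gave positions, and promoter windows came from RefSeq. Of 40 pairs of libraries within groups none agreed within sampling noise. Named are the 9 members, the other retinoid genes past the threshold, further genes of those lists called in no comparison, some markers (both chosen after their values were seen), and for each member the 3 genes with the most similar log2 CPM, of which some, like some listed genes, are not reported here. The members and all lists were chosen with earlier results of these data known. Alternatives were DESeq2 1.42.0, DESeq2's size factors in edgeR, no filter, a mean count of at least 50, a fit of only the groups compared, a replicate block and leaving out each library. The edgeR fit was tested on simulated data.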

Additional observations from a re-analysis of the deposited data

Results flagged for a closer look

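In 3 of the 36 sets of 5 CPM values (9 genes in 4 groups), 1 library stood apart from the other 4, its gap to the nearest of them, as a share of the whole range, exceeding Dixon's 95% critical value, which chance gives in about 1 of 20 such sets. Cyp26a1 was at 37.3 CPM in shRNA+BBR replicate 4, with a gap of 0.797 of the range. Rarb was at 5.37 CPM in Vec replicate 5, with a gap of 0.763. Rdh11 was at 27.1 CPM in Vec+BBR replicate 1, the lowest of its group, with a gap of 0.717.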

How the results depend on the processing

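Of the 12 calls among the members, 5 held in every alternative (Cyp26a1, Rbp4 and Rdh16 with BBR in Vec livers, Rdh16 with BBR in shRNA livers, Aldh1a1 with the knockdown), and none changed sign. By the exact permutation test, adjusted p was above 0.05 for the calls of Cyp26a1 (0.0952) and Retsat (0.0612) with BBR in shRNA livers. It was also above 0.05 for Rdh16 with the knockdown (0.0612). Among uncalled results it was under 0.05 for Lrat with BBR in Vec livers (0.0317) and for Cyp26a1 and Aldh1a1 with the knockdown under BBR (0.0476 each). Over all genes, BBR in Vec livers called 1908, 1178 in a fit of only those groups, and 1237 to 2395 without 1 library. The highest counts came without Vec replicate 3 (2395) or Vec replicate 5 (2228). Of the Vec libraries, these held the most Pparg, Lrat, Retsat and Rdh11 and the least Cyp26a1 and summed pericentral markers. In each case that is the side on which the Vec+BBR mean lay. BBR in shRNA livers called 1932 and 661 to 2527 without 1 library, the lowest without shRNA+BBR replicate 3. The knockdown called 1628 and 1015 to 2284 without 1 library, and under BBR 1004 and 538 to 1129. The interaction called 18, 338 by DESeq2, and 5 to 122 without 1 library. Among uncalled members, signs turned for Rarb with BBR in shRNA livers (0.0149 with a mean count of at least 50, 0.0011 in a fit of only those groups, −0.1317 to 0.1460 without 1 library) and the interaction of Rdh16 (−0.0014 without the filter, −0.0324 to 0.0942 without 1 library). Without 1 library the ranges also spanned 0 for Aldh1a1 (−0.0257 to 0.1453) and Dhrs3 (−0.1316 to 0.0387) with BBR in Vec livers, Cyp26a1 (−0.0136 to 0.6910) and Rarb (−0.0641 to 0.3491) with the knockdown, Retsat with the knockdown under BBR (−0.0713 to 0.1289) and the interactions of Lrat (−0.1384 to 0.2575) and Rdh11 (−0.0610 to 0.3159). The cause was not tested. Same-numbered libraries correlated above 0.1 in 1, 3, 0 and 0 of 5 pairs in the 4 comparisons, so the numbers were not taken to pair the libraries. With the replicate block the comparisons called 1747, 1819, 1495, 940 and 21 genes, and the calls of Lrat (adjusted p = 0.0638) and Rdh11 (0.0538) with BBR in shRNA livers were lost, with no other call of a member changed.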
